A study of Mus musculus with 14 samples.

Results

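The 7 apolipoprotein genes Apoa1, Apoa5, Apoc1, Apoc2, Apoc3, Apoc4 and Apoh were followed across 14 liver arrays. They were chosen as every oligonucleotide whose name or symbol in the array files denotes one of these genes, which gave 7 of the 284 mouse oligonucleotides and 7 of the 272 different genes, 1 oligonucleotide each. All 7 passed the detection filter, and they are 7 of the 134 genes that entered the tests. The samples came from the livers of C57BL/6 mice aged 15 to 20 weeks on standard chow, 1 animal per array, with primary hepatocytes given as the cell type. The labels write the genotype of the homozygous animals as mthr-/- and do not spell the abbreviation out. The mthr-/- group held 7 mice, 4 female and 3 male, and betaine (2%, w/v) had been put in the drinking water of the homozygous animals from 5 weeks after weaning. The wild type group held 7 mice, 2 female and 5 male, without betaine, and the effects of genotype and betaine cannot be told apart. The arrays belonged to 4 slide series by the labels, called A to D here: A held 4 mthr-/- arrays and 1 wild type array, B 2 mthr-/- and 4 wild type arrays, C 2 wild type arrays, and D 1 mthr-/- array.

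Apolipoproteins are the proteins of lipoprotein particles, which carry triglyceride and cholesterol through the blood, and the liver is a main source of most of them. Apoa1 encodes the chief protein of high-density lipoprotein. Apoa5 and Apoc2 favour the breakdown of triglyceride by lipoprotein lipase, and Apoc3 opposes it. Apoc1 is a small exchangeable apolipoprotein that can inhibit lipases, and Apoc4 is a minor component of triglyceride-rich particles. Apoh, also called beta-2-glycoprotein I, binds phospholipid and belongs to another protein family. In the RefSeq annotation of GRCm38.p6 the genes fall at 3 places. Apoa1 (chromosome 9, 46228630 to 46230469), Apoc3 (46233050 to 46235636) and Apoa5 (46268608 to 46271921) lie within 43.3 kb. Apoc2 (chromosome 7, 19671579 to 19677941), Apoc4 (19678084 to 19681460) and Apoc1 (19689480 to 19692659) lie within 21.1 kb. Apoh lies alone among them on chromosome 11, from 108395297 to 108414396.

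RefSeq promoter windows, 250 bases before to 50 after the gene's start in GRCm38.p6, were at hand for 5 of the 7 genes, and those of Apoa1, Apoa5, Apoc4 and Apoh are shown because these genes are in correlated pairs described below. The window of Apoc2, which is in such a pair too, runs into the neighbouring gene Apoc4 and is not printed. Capitals mark TATAAA or AGGTCA on either strand, and the marked matches do not overlap each other.
Apoa1, chr9:46228380-46228679, plus strand: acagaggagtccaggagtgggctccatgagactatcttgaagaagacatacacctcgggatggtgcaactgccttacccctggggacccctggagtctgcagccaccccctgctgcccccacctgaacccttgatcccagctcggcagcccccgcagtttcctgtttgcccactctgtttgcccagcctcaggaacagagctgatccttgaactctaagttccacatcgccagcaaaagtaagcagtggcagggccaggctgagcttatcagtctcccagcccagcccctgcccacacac
Apoa5, chr9:46268358-46268657, plus strand: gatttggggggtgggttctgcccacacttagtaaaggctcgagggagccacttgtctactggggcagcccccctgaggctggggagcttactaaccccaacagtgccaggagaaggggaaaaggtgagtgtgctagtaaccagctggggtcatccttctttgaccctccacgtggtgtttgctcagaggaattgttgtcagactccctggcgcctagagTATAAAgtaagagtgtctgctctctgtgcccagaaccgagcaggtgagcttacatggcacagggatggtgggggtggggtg
Apoc4, chr7:19681411-19681710, minus strand: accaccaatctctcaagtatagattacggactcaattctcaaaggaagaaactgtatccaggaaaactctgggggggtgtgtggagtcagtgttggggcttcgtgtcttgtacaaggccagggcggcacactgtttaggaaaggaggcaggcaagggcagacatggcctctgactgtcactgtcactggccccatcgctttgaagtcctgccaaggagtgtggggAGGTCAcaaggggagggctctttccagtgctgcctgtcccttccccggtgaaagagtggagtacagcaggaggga
Apoh, chr11:108395047-108395346, plus strand: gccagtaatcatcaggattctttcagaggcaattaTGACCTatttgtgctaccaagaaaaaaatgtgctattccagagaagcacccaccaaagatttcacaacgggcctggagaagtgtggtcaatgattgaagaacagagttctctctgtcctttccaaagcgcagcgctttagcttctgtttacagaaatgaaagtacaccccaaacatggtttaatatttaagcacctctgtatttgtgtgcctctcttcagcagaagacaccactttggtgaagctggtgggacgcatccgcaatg
TATAAA, the TATA box core, began at -31 from the start in Apoa5, and was in 13.6% of 32851 mouse promoter windows of the same length. Apoa5 had 2 windows, and from the start of the other, which is not printed, the same TATAAA began at -56. AGGTCA, the core sequence that many nuclear receptors bind, began at -25 in Apoc4 and stood at -215 on the opposite strand in Apoh, and was in 16.3% of the windows. In the window of Apoc2 it began at -115 and at 42. CAAAGTCCA, an HNF4 motif, and TTGCNNAA, a C/EBP motif, were in 0.5% and 10.8% of all windows and in none of these 4. These letters are a description of the windows, and no measurement here bears on binding to them.

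Each oligonucleotide was spotted in 4 blocks of the array, and its level was the mean of spot intensity minus local background in scanner units over the kept spots. Background-subtracted intensity summed over all mouse oligonucleotides ran from 16029 to 82510 in mthr-/- livers and from 14443 to 56948 in wild type livers. There were 123 to 186 oligonucleotides above the limit set by plant control spots on mthr-/- arrays and 70 to 155 on wild type arrays. Wild type 6 had the fewest, 70, and mthr-/- 1 stood apart in its spots. Of the hepatocyte marker list, the 6 genes on the array all entered the tests, 3 with a genotype difference above 0, 3 below 0 and 0 past the threshold. Their summed intensity was 2867 to 24400 in mthr-/- and 1019 to 11608 in wild type livers. For Kupffer cells and blood cells 0 listed genes were on the array, so these cells could not be assessed. The 2 tested of 5 endothelial genes on the array, the 3 of 5 stellate genes and the 3 muscle genes included 0 past the threshold. Summed over the genes on the array, the endothelial markers ran from 8.25 to 77.5 in mthr-/- and from -9.85 to 25 in wild type livers, and the stellate markers from -4 to 519 in mthr-/- and from 16.3 to 154 in wild type livers. The muscle markers ran from 3.88 to 928 in mthr-/- and from 6.48 to 445 in wild type livers. Krt19, the cholangiocyte marker on the array, was not among the tested genes. The part of any of these markers in the apolipoprotein values was not tested.

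On mthr-/- 1 the repeat spots of 5 of the 7 genes contradicted each other. The authors had blanked block 1 of these genes, and block 3 repeated the values of block 2 and was counted once, so the kept values came from blocks 2 and 4. Apoc3 read 34 and 16 in the kept blocks 2 and 4 and 4158 in the blanked block 1. Apoa5 read 6 and 6 against 1675, Apoh 13 and 14 against 1376, Apoc4 6 and 41 against 1322, and Apoc2 49 and 28 against 605. Apoa1 and Apoc1, whose 3 different spots were kept, did not show this: Apoa1 read 1656, 1151 and 989, and Apoc1 5057, 3029 and 3075. The 5 genes lie between array positions 26 and 92. In that range 12 of 13 oligonucleotides with a block 1 over 100 units had a block 1 more than 4 times the mean of blocks 2 and 4 on this array. The count in that range was 0 on each of the other 13 arrays. Apoa1 and Apoc1 stand outside the range, at positions 1 and 5. A milder split was seen on wild type 1, where Apoc3 read 772, 677, 4 and 44 in blocks 1 to 4, all kept, and Apoa5 read 177, 75 and 19 in the kept blocks 1, 3 and 4 and 220 in the blanked block 2. These 2 genes were among 6 oligonucleotides with bright blocks 1 and 2 and weak blocks 3 and 4 on that array. Of the 6, 5 stood at positions 42 to 61 and the other at position 170. The genotype and slide series differences of the 5 genes are therefore given with and without mthr-/- 1.

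**Figure D1:**
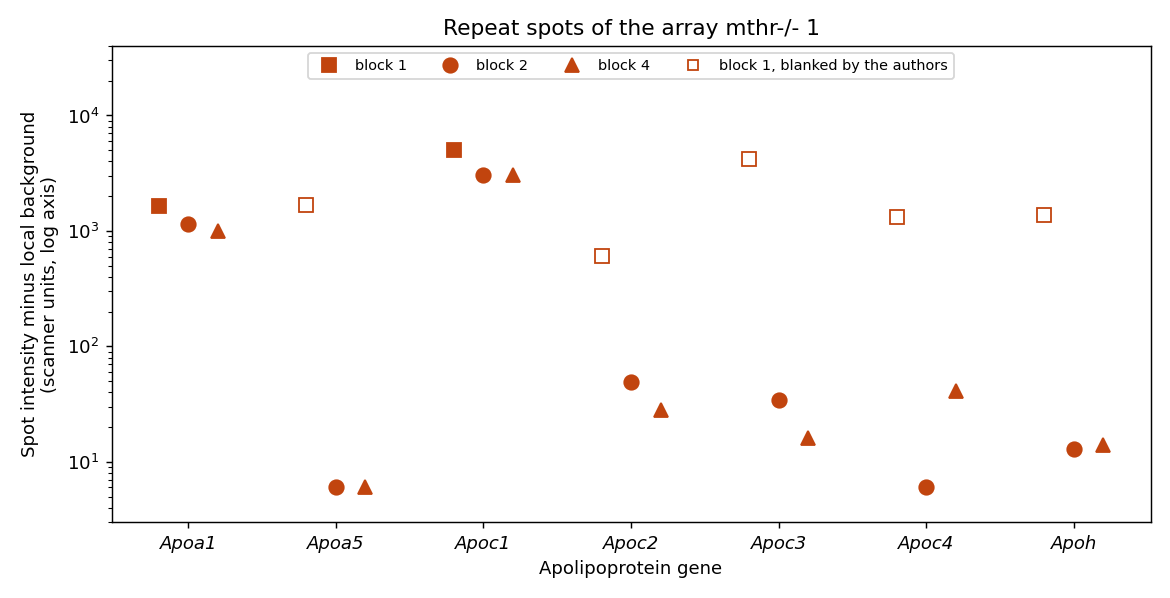
Spot intensity minus local background (scanner units, log axis) of each apolipoprotein gene on the array mthr-/- 1, by block, with open squares for block 1 spots that the authors blanked. In Apoa5, Apoc2, Apoc3, Apoc4 and Apoh the blanked spot lies far above the kept spots of blocks 2 and 4, and in Apoa1 and Apoc1 the 3 spots lie close together.

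No apolipoprotein gene differed between mthr-/- and wild type livers at the threshold of an adjusted p of 0.05. With limma (Benjamini-Hochberg over 134 genes) 0 of the 7 were called, as were 0% of all 134 genes, and the smallest adjusted p of any gene was 0.58. At an unadjusted p under 0.05 there were 10 genes (7.46%) and 0 of the 7. The log2 difference, mthr-/- minus wild type, was below 0 for 5 of the 7 genes and for 50.7% of all tested genes, with a median of -0.19 over the 7 and -0.0043 over all. It was below 0 for 4 of the 7 and 52.2% of all genes without mthr-/- 1, and for 5 of the 7 and 51.5% under a slide series block. With no normalization between arrays, which moved the median of all genes to 0.81, it was below 0 for 2 of the 7 and below that median for 6. No gene of the 134 had all mthr-/- arrays above, or all below, the wild type arrays. In whole liver RNA, fewer cells of a type and less RNA per cell cannot be told apart. Without mthr-/- 1, Apoa1 had the largest positive difference of the 7 and Apoc1 the largest negative one.

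Apoa1 had an intensity of 186, 1265 and 2911 (lowest, median and highest) on the 7 mthr-/- arrays, against 10, 284 and 2285 on the 7 wild type arrays. The 5 brightest arrays were mthr-/- 3, wild type 1, mthr-/- 4, mthr-/- 6 and mthr-/- 1, wild type 6 was the dimmest, and the groups overlapped. After normalization the log2 level was 9.85 ± 0.75 in mthr-/- and 8.95 ± 1.32 in wild type livers (SD, n = 7 each). The difference was 0.89 (SE 0.54, limma adjusted p = 0.58), which is within the spread between animals. It was 0.86 (SE 0.59, adjusted p = 0.702) without mthr-/- 1 and -0.04 (SE 0.51, adjusted p = 0.988) once slide series was a block, a fit in which only series A and B, which hold both genotypes, inform the difference. Within series B, with 2 mthr-/- and 4 wild type arrays, it was 0.65, and within series A, with 4 and 1, it was -1.18.

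The activators of triglyceride breakdown, Apoa5 and Apoc2, did not pass the test. Apoa5 ran through 6, 364 and 972 in mthr-/- livers and 68.5, 246 and 656 in wild type livers. The value of 6 is mthr-/- 1, below that array's limit of 6.08, and without it the lowest mthr-/- array was at 163. The log2 difference was 0.14 (SE 0.32, adjusted p = 0.889) on 14 arrays and 0.41 (SE 0.20, adjusted p = 0.687) without mthr-/- 1. Apoc2 ran through 35.7, 131 and 449 in mthr-/- livers and 12.3, 103 and 318 in wild type livers. Wild type 6 was the dimmest and mthr-/- 4 the brightest, and the other arrays of both groups were interleaved. Its difference was -0.19 (SE 0.27, adjusted p = 0.8) on 14 arrays, -0.09 (SE 0.27) without mthr-/- 1 and -0.04 (SE 0.24) without wild type 1. Under the slide series block it was -0.56 (SE 0.34, adjusted p = 0.878) with and -0.46 (SE 0.29, adjusted p = 0.933) without mthr-/- 1.

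Of the genes that oppose lipase, Apoc3 ran through 25, 1604 and 2460 in mthr-/- livers and 374, 1045 and 2933 in wild type livers. Its lowest mthr-/- array was mthr-/- 1 and its lowest wild type array wild type 1, the 2 arrays with split spots. The log2 difference was -0.17 (SE 0.54, adjusted p = 0.903) on 14 arrays and was 0.33 (SE 0.29, adjusted p = 0.723) without mthr-/- 1. The latter value keeps wild type 1, at a log2 level of 8.55 against 10.09 to 10.62 on the other wild type arrays. Without wild type 1 alone the difference was -0.43 (SE 0.52), and no fit left out just these 2 arrays. The fit within slide series B, with 2 mthr-/- and 4 wild type arrays, holds neither of them. There the difference was 0.04 (SE 0.11, limma adjusted p = 0.932). Apoc1 ran through 1140, 2408 and 5564 in mthr-/- livers and 1399.5, 1793 and 6095 in wild type livers, the groups overlapping over nearly the whole range. On the normalized log2 scale Apoc1 stood at 10.92 ± 0.51 in mthr-/- and 11.40 ± 0.39 in wild type livers (SD, n = 7 each). The difference was -0.48 (SE 0.23, limma adjusted p = 0.58), while the median raw intensity was higher in mthr-/- livers. Without mthr-/- 1 the limma p was 0.0348, 1 of 6 genes (4.48%) under 0.05, with an adjusted p of 0.687. Apoc1 had no split spots on mthr-/- 1, and that array held its highest mthr-/- value, 11.41. With slide series as a block the difference was -0.11 (SE 0.26, adjusted p = 0.878).

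Apoc4 and Apoh had differences below 0 that were smaller without mthr-/- 1, and neither passed the test. Apoc4 ran through 23.5, 521 and 1005 in mthr-/- livers and 222, 375 and 1534 in wild type livers. Apart from mthr-/- 1 at 23.5, the lowest mthr-/- array was at 281, within the range of the wild type arrays. The log2 difference was -0.41 (SE 0.35, adjusted p = 0.674) on 14 arrays and -0.10 (SE 0.20, adjusted p = 0.853) without mthr-/- 1. Apoh ran through 13.5, 496 and 1407 in mthr-/- livers and 214, 568 and 1387 in wild type livers. Again mthr-/- 1 was the lowest, and the other 6 mthr-/- arrays lay between 276 and 1407, overlapping with the wild type arrays. Its difference was -0.62 (SE 0.36, adjusted p = 0.58) on 14 arrays, -0.28 (SE 0.18, adjusted p = 0.702) without mthr-/- 1 and -0.60 (SE 0.45, adjusted p = 0.878) under the slide series block, or -0.40 (SE 0.19, adjusted p = 0.933) under that block without mthr-/- 1.

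**Figure D2:**
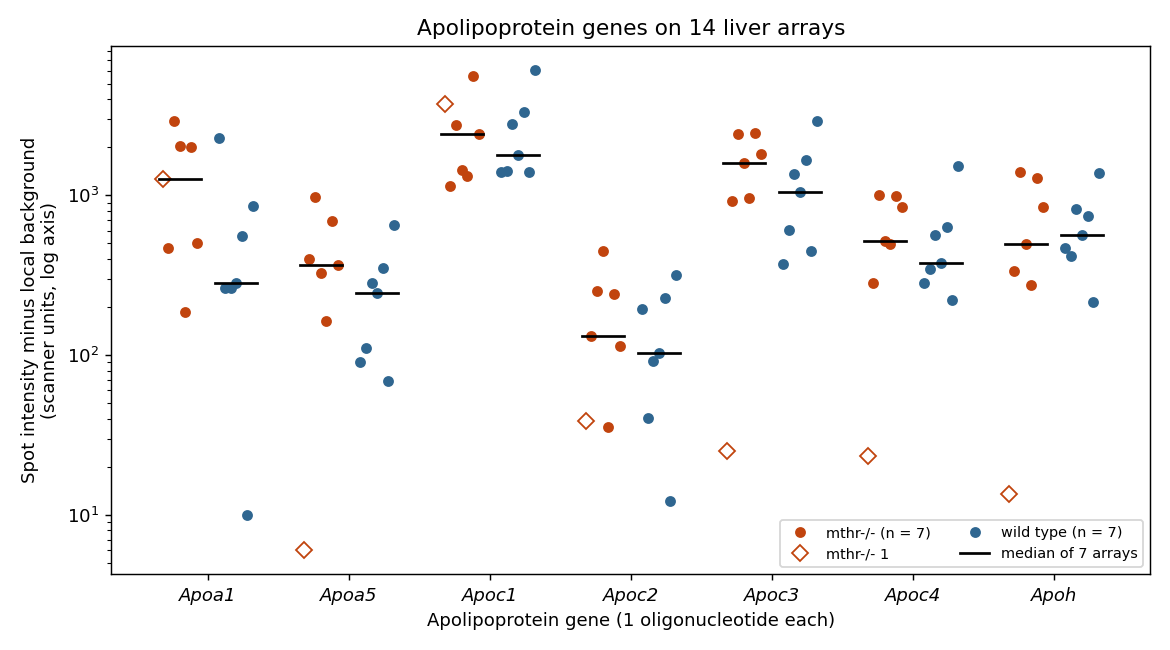
Spot intensity minus local background (scanner units, log axis) of the 7 apolipoprotein genes, 1 point per array, mthr-/- left of wild type for each gene, with bars at the median of 7 arrays and open diamonds for mthr-/- 1. The groups overlap for every gene, and mthr-/- 1 is the lowest mthr-/- array for Apoa5, Apoc3, Apoc4 and Apoh.

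**Figure D3:**
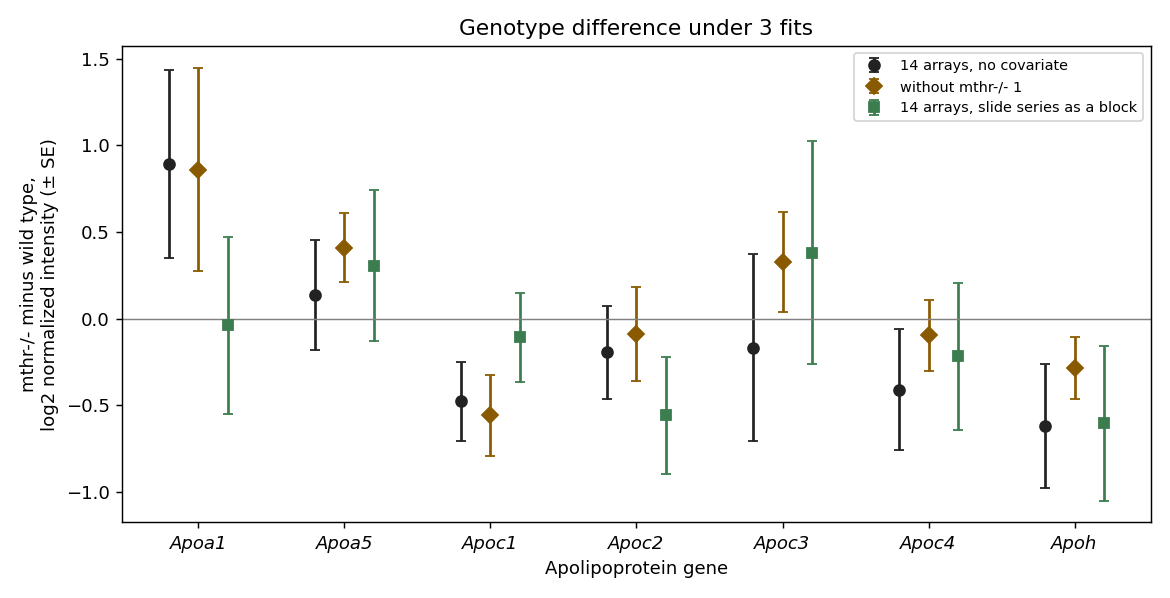
Log2 difference, mthr-/- minus wild type, with its SE for the 7 genes under 3 fits: all 14 arrays, without mthr-/- 1, and slide series as a block. The difference of Apoa1 is 0.89 without a block and -0.04 with it, and that of Apoc3 changes sign without mthr-/- 1.

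The authors' deposited table of medians and ratios lists the 7 genes too. In the authors' deposited table the mthr-/- over wild type ratio was 1.90 for Apoa1 and 1.27 for Apoa5. The authors' deposited table gave ratios of 0.762 for Apoc1, 0.649 for Apoc2, 0.835 for Apoc3, 0.695 for Apoc4 and 0.67 for Apoh. Ratios were below 1 for 5 of the 7 genes and for 39 of the 103 oligonucleotides in the authors' deposited table, whose median ratio was 1.15. These are ratios of the authors' medians and carry no error. For the 7 genes the authors' mthr-/- medians are those of their scaled array values without mthr-/- 7. The arrays behind these ratios therefore differ from those of the fits above. Apoa5 and Apoh also had no scaled value on mthr-/- 1. Apoc2, Apoc3 and Apoc4 kept low values on that array, at 24.2, 16.1 and 10.4.

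Between slide series A and B, Apoa1 had a positive and Apoc1 a negative difference. Neither passed the threshold on all arrays, and Apoc1 alone of the 7 passed without mthr-/- 1. The spots of Apoc1 on mthr-/- 1 were not split. Leaving that array out removes its highest value in series A, 11.41. Series A was set against series B over 11 arrays with genotype in the model, and 9 of 134 genes (6.72%) were called, 0 of the 7 among them. At an unadjusted p under 0.05 were 2 of the 7 and 25.4% of all genes, and the difference was below 0 for 5 of the 7 and 58.2% of all. Apoa1 had a log2 level of 10.50 ± 0.70 in series A (SD, n = 5) and 9.0 ± 0.60 in series B (SD, n = 6). The fitted difference, A minus B, was 1.51 (SE 0.44, limma adjusted p = 0.0656). Apoc1 stood at 10.71 ± 0.53 in A and 11.39 ± 0.18 in B, with a difference of -0.63 (SE 0.25, adjusted p = 0.15). Without mthr-/- 1, 14 genes (10.4%) were called, and Apoc1 was the 1 of the 7 among them, at -0.77 (SE 0.19, adjusted p = 0.0385), with Apoa1 at 1.60 (SE 0.46, adjusted p = 0.0621). At an unadjusted p under 0.05 were 4 of the 7 then, and 39.6% of all genes. With median centring of the arrays 0 genes were called, and the smallest adjusted p was 0.638. The other 5 genes did not pass. The difference of Apoc3 was -1.31 (SE 0.68, adjusted p = 0.226) with and -0.83 (SE 0.32, adjusted p = 0.103) without mthr-/- 1. The latter value still holds wild type 1, where Apoc3 had split spots and stood at 8.55. The other series A arrays left in it, mthr-/- 2, 3 and 4, stood at 10.63, 10.13 and 10.265. Series B had a mean of 10.45. With and without mthr-/- 1 the difference was -0.45 and -0.17 for Apoa5, 0.56 and 0.72 for Apoc2, -0.71 and -0.40 for Apoc4, and -0.57 and -0.23 for Apoh.

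The ratio of Apoa1 to Apoc1 within an array is given as a description with no test, since it was chosen after the values of both genes were seen. Its log2 averaged -1.26 ± 1.19 in mthr-/- and -2.91 ± 2.29 in wild type livers (SD, n = 7 each), a difference of 1.64 with overlapping groups. Without wild type 6, whose Apoa1 was near background, it was 0.94. Between the slide series the ratio averaged -0.31 ± 1.04 in A (n = 5) and -2.57 ± 0.63 in B (n = 6), a difference of 2.26. The lowest array of A, at -1.56, and the highest of B, at -1.48, overlapped narrowly. Within series B the ratio averaged -2.16 in the 2 mthr-/- and -2.77 in the 4 wild type arrays. Series A held mostly mthr-/- arrays and series B mostly wild type arrays.

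**Figure D4:**
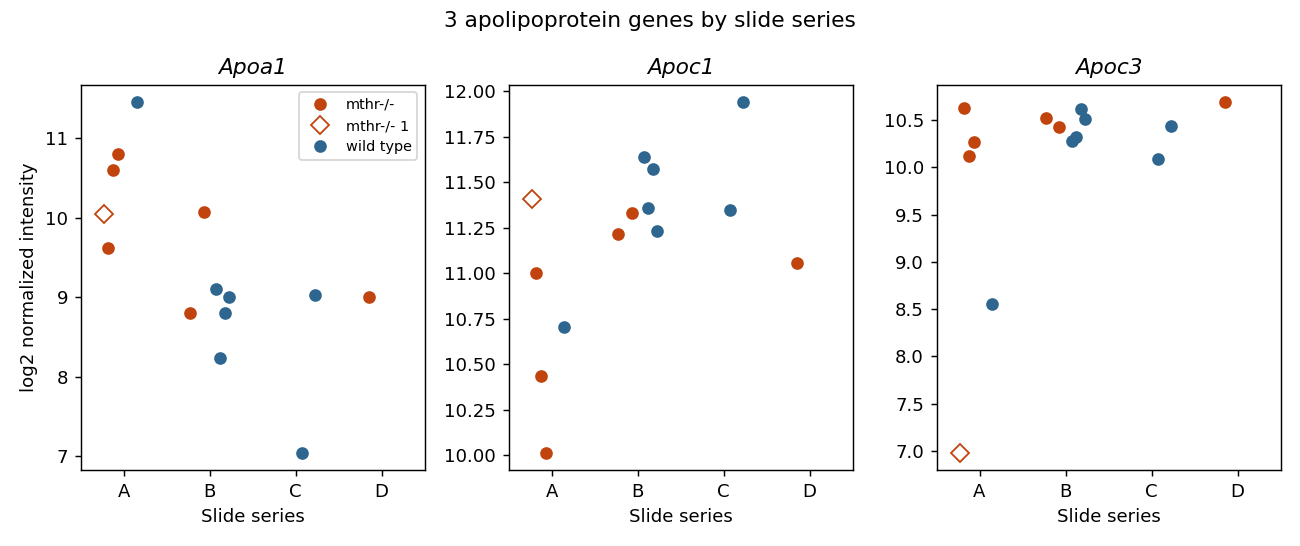
Log2 normalized intensity of Apoa1, Apoc1 and Apoc3 by slide series A to D, 1 point per array, mthr-/- left of wild type, with an open diamond for mthr-/- 1. Apoa1 is high and Apoc1 low in most arrays of series A, and Apoc3 is low on mthr-/- 1 and wild type 1.

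The sexes did not differ in any apolipoprotein gene at the threshold. With genotype in the model, 0 of the 7 and 0% of the 134 genes were called by limma, with 3 genes (2.24%) and 0 of the 7 at an unadjusted p under 0.05. The difference, female minus male, was below 0 for 6 of the 7 genes and 49.3% of all genes on 14 arrays. With median centring it was above 0 for all 7, at 0.26 to 0.62. The share of all genes above 0 was not counted under median centring. Whether the 7 differed from other genes there was not tested. In the main scaling without mthr-/- 1, a female, the difference was below 0 for 3 of the 7 and 44.8% of all. The genotype by sex term called 0 genes (0%), with 2 (1.49%) and 0 of the 7 at an unadjusted p under 0.05, and for Apoa5, with the smallest p of the 7, it was -1.09 (SE 0.62, limma adjusted p = 0.999) with mthr-/- 1 and -0.66 (SE 0.41, adjusted p = 0.991) without it. Without mthr-/- 1 this term called 0 genes, with 1 (0.746%) and 0 of the 7 at an unadjusted p under 0.05.

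How far the 7 genes varied together across animals depended on the scaling of the arrays: 0 of their 21 pairs passed after quantile normalization and 14 after median centring. Pairs that passed, or had an unadjusted p under 0.05, were not counted over all pairs of tested genes under either scaling. Whether the 7 genes differed from other genes in these counts was not tested. After quantile normalization, over the 13 arrays other than mthr-/- 1 the 21 pairs had Pearson r between -0.654 and 0.682. Their median was 0.085, against a median of -0.004 over all 8911 pairs of tested genes, and 13 of 21 were above 0. Over all pairs the quartiles of r were -0.381 and 0.369, and 10.5% had an r over 0.6. Of the 21 pairs, Apoa5 with Apoc3 and Apoa1 with Apoc2 had an r over 0.6. All points of a pair share the array and its scaling. By permutation tests adjusted over the 21 pairs, 0 passed by Pearson's r, 6 had an unadjusted p under 0.05, and 1 passed by Spearman's rho. The 6 pairs on the same chromosome had a median r of 0.004 and the 15 on different chromosomes 0.102.

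Apoa5 and Apoc3, which lie in the same cluster on chromosome 9 and 4 positions apart on the array, were the most alike pair. Their r was 0.682 (permutation p = 0.015, adjusted p = 0.105, n = 13) and their rho 0.791 (permutation p = 0.00213, adjusted p = 0.0447). Leaving out mthr-/- 2 and wild type 1, the arrays farthest from the median of Apoa5, gave an r of 0.671. Within series B alone r was 0.916 over 6 arrays, given as a description. After slide series and genotype were removed it was 0.805 (permutation, adjusted p = 0.0239), the 1 pair that passed on residuals. With an offset of 0 it was 0.714 (permutation, adjusted p = 0.038), and with median centring 0.901 (permutation, adjusted p = 0.00042). In the main scaling with mthr-/- 1 included, where both genes had split spots, r was 0.873. Both also had weak blocks 3 and 4 on wild type 1, and without that array r was 0.695 (permutation, adjusted p = 0.181).

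Apoa1 went against Apoc1, with r = -0.654 (permutation p = 0.015, adjusted p = 0.105) and rho = -0.593 (permutation p = 0.035, adjusted p = 0.184) over 13 arrays, and r = -0.759 without wild type 1 and wild type 6. Within series B, over 6 arrays, it was -0.038, and after slide series and genotype were removed it was 0.04. Within genotypes r was -0.761 over 6 mthr-/- arrays and -0.513 over 7 wild type arrays. The part of slide series in this relation was not tested. With median centring its sign turned, to r = 0.12. Apoa1 went with Apoc2, with r = 0.658 (permutation p = 0.0146, adjusted p = 0.105) and rho = 0.522 (permutation p = 0.071, adjusted p = 0.244). Their r was 0.283 without both wild type 1 and wild type 6, 0.497 without wild type 1, 0.556 without wild type 6 and 0.012 within series B. After slide series and genotype were removed it was 0.552 (permutation, adjusted p = 0.27), and with median centring 0.777 (permutation, adjusted p = 0.00537). Apoc4 went with Apoh (r = 0.595, permutation p = 0.0327, adjusted p = 0.157; rho = 0.654, permutation p = 0.0182, adjusted p = 0.157), with r = 0.801 without mthr-/- 5 and wild type 7 and -0.257 within series B. After slide series and genotype were removed, their r was 0.711 (permutation, adjusted p = 0.0681). With mthr-/- 1, where both genes had split spots, the pair passed at r = 0.904 (permutation, adjusted p = 0.00976). Apoc1 went with Apoh (r = 0.579, permutation p = 0.0373, adjusted p = 0.157; rho = 0.637, permutation p = 0.0224, adjusted p = 0.157), with r = 0.283 without mthr-/- 3 and mthr-/- 4, 0.905 within series B and 0.134 with mthr-/- 1. Apoc1 and Apoc4 had r = 0.556 (permutation p = 0.0466, adjusted p = 0.163) and rho = 0.511 (permutation p = 0.0766, adjusted p = 0.244), with r = 0.282 without mthr-/- 3 and mthr-/- 4, -0.057 within series B and 0.161 with mthr-/- 1.

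**Figure D5:**
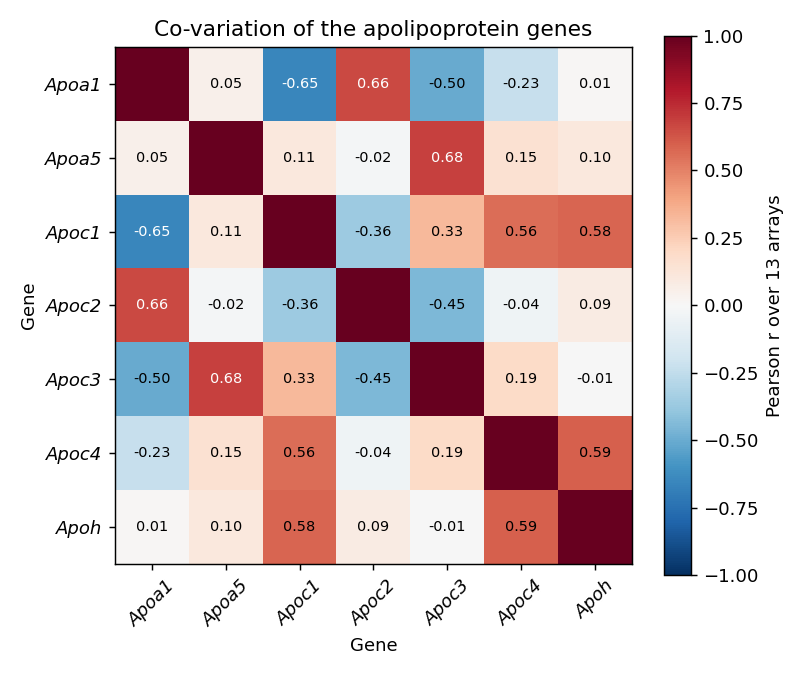
Pearson r between the log2 normalized intensities of each pair of the 7 genes over 13 arrays without mthr-/- 1. Apoa5 with Apoc3 (0.68) and Apoa1 with Apoc2 (0.66) are the highest, and Apoa1 with Apoc1 (-0.65) is the lowest.

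Among all tested genes, the most alike of each were listed by r over the same 13 arrays, as a description. Each r was picked as among the highest over all tested genes. Several of the genes named were dim. Mean log2 levels in mthr-/- and wild type livers were 6.88 and 6.87 for Aqp1, 6.89 and 6.91 for Gsr, and 6.89 and 7.03 for Aqp8. They were 7.00 and 7.10 for Abcc3, and 7.09 and 7.03 for Shmt2. Apoa5 on mthr-/- 1, below the limit, stood at 6.80. Apoa1 was closest to Aqp1, a water channel (0.862), and to Rps2, a ribosomal protein (0.859), and both stayed high within series B, at 0.748 and 0.672. Apoc3 was closest to Sod1, the copper-zinc superoxide dismutase (0.872), and Shmt2, the mitochondrial serine hydroxymethyltransferase (0.838), but without wild type 1 these were 0.581 and 0.403, and within series B -0.437 and -0.269. Apoa5 was closest to Sod1 too (0.707, and -0.324 within series B), with Apoc3 next. Apoc1 was closest to an enoyl-CoA hydratase oligonucleotide that the files list as enonyl (0.811, and -0.45 within series B) and to Abcc3, a transporter of organic anions (0.731). Apoc2 was closest to Gsr, glutathione reductase (0.788), and Ctsb, the protease cathepsin B (0.708). Abcc3 was also the closest gene to Apoc4 (0.774), followed by Pcx, pyruvate carboxylase (0.745), and it was second for Apoh (0.641) after the water channel Aqp8 (0.643).

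Few other genes of lipoprotein metabolism were on the array. Of 23 listed genes 2 were present, and 1 was tested, Apoa4, an apolipoprotein of the intestine and liver, with a log2 difference of -0.05 (SE 0.11, adjusted p = 0.889). Apob, the structural protein of very low density lipoprotein, was above the limit on 1 of the 14 arrays and was not tested. Of 26 genes of lipid metabolism in hepatocytes, 3 were present and tested, with log2 differences below 0 for all 3 and 0 past the threshold. Fabp1, the fatty acid carrier of hepatocytes, had a difference of -0.60 (SE 0.54, adjusted p = 0.674). On mthr-/- 1 it read 20, against a median of 1499 over the mthr-/- arrays.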

How the data were processed

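Total liver RNA of each of the 14 animals was hybridised to its own 1-colour oligonucleotide array after being copied into labelled cDNA with oligo-dT primers, per the labels' protocols. The deposited array files hold spot intensity and local background intensity on a linear scale for 4 blocks, per the file headers. The scanner and image software were not given in the sources used here. The authors' deposited ratio table gives, per the file headers, the log10 of the mthr-/- over wild type ratio of median intensity.

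Spots were corrected with normexp (offset 50) and quantile normalized in limma 3.58.1 (R 4.3.3), which draws differences of dim genes towards 0. Blanked spots, the repeated block 3 of mthr-/- 1 and control spots were left out, and the log2 values of kept spots were averaged. A gene was tested when above the mean plus 2 SD of the 4 plant control oligonucleotides on at least 7 of 14 arrays, by its brightest oligonucleotide. Genotype was the only term of a limma fit (lmFit, then eBayes, two-sided) over the 14 arrays, with Benjamini-Hochberg adjustment over 134 genes and a threshold of 0.05. Slide series and sex were fitted with genotype in the model. Correlations used 100000 permutations and SciPy 1.17.1. The code was tested on simulated data. No replicate pairing of animal numbers was used, since same-numbered animals had correlations of deviations from the group means of -0.23 to 0.353. Alternatives were other offsets, scalings and filters, arrays left out, and slide series, sex or animal number as covariates. The number of arrays limits the precision. The genes, lists and tests were chosen with earlier results of these data known. By the rule for named genes, all 7 members, the 2 most alike genes of each and up to 2 genes of each list are named, besides cases singled out by their spots. A result that this rule names is not reported here. Gene names came from RefSeq tables, of the 7 genes 6 by accession and 1 by symbol, and sequences from RefSeq promoter windows of GRCm38.p6. No column of the tables was left unmapped.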

Additional observations from a re-analysis of the deposited data

Results flagged for a closer look

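For each gene and genotype the highest and lowest of 7 arrays were tested for a gap to the nearest array that is large against the range. Of 14 sets 5 were marked, 4 of them for mthr-/- 1. Chance marks about 1 in 20 groups, but the low spots of mthr-/- 1 were known beforehand, so its marks only describe those spots again. On the log2 normalized scale mthr-/- 1 stood at 6.80 for Apoa5, 6.98 for Apoc3, 6.95 for Apoc4 and 6.87 for Apoh, each the lowest of the mthr-/- arrays by a wide gap. Wild type 1 stood at 8.55 for Apoc3, the lowest of the wild type arrays.

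Signal was also present in spots left out of the report's main comparison. On mthr-/- 1 the block 1 spots that the authors blanked read 1675 for Apoa5, 605 for Apoc2, 4158 for Apoc3, 1322 for Apoc4 and 1376 for Apoh, above that array's plant control limit of 6.08. With these spots in place of blocks 2 and 4 between positions 26 and 92, the log2 difference, mthr-/- minus wild type, was 0.43 for Apoc3, 0.61 for Apoa5, 0.04 for Apoc2, -0.02 for Apoc4 and -0.21 for Apoh. With blocks 2 and 4 it was -0.17 for Apoc3, 0.14 for Apoa5, -0.19 for Apoc2, -0.41 for Apoc4 and -0.62 for Apoh. Both ways 0 genes were called by limma, with a smallest adjusted p of 0.476 and 0.58.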

How the results depend on the processing

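Of 37 alternatives to the genotype fit, 36 called 0 genes, and the fit with no normalization called 1, which was not an apolipoprotein gene. Leaving out each of the 14 arrays called 0 genes each time. Over 252 alternative values of the 7 genes 0 were called, and 24 changed sign, none of them for Apoh. Apoc3 accounted for 13: it was 0.10 with cyclic loess, 0.38 with no normalization, 0.0298 with reference gene centring, 0.0589 with blanked spots kept, 0.33 without mthr-/- 1, 0.33 without mthr-/- 1, wild type 6 and mthr-/- 6, 0.32 with positions 26 to 92 of mthr-/- 1 set missing, and 0.43 with block 1 in their place. With slide series it was 0.38 as a block, 0.67 as a block without mthr-/- 1, 0.0922 as a random block, and 0.95 within series A and 0.0418 within series B. Apoa1 was -0.0386 with slide series as a block and -1.18 within series A, where Apoc1 was 0.009. Apoa5 was -0.61 with plain subtraction and a floor, -0.17 with median centring and -0.0214 without mthr-/- 2. Apoc2 was 0.60 with no normalization, 0.26 with reference gene centring and 0.041 with block 1 in place on mthr-/- 1. Apoc4 was 0.15 with no normalization and 0.16 within series B. Leaving out 1 array gave ranges of 0.58 to 1.31 for Apoa1, -0.0214 to 0.41 for Apoa5, -0.59 to -0.33 for Apoc1, -0.35 to -0.04 for Apoc2, -0.43 to 0.33 for Apoc3, -0.58 to -0.10 for Apoc4 and -0.75 to -0.28 for Apoh. The median of all genes was 0.46 with reference gene centring and 0.81 with no normalization, and 6 of the 7 genes were below it under both. With the animal number as a replicate block 0 genes were called, and it changed no call of the 7 genes (Apoa1 0.89, adjusted p = 0.633). Between slide series A and B, 0 genes were called with median centring and 14 without mthr-/- 1, where Apoc1 was -0.77. Female minus male with median centring was 0.39 for Apoa1, 0.30 for Apoa5, 0.29 for Apoc2, 0.33 for Apoc3, 0.26 for Apoc4 and 0.47 for Apoh, and without mthr-/- 1 it was 0.10 for Apoc2, 0.26 for Apoc3 and 0.21 for Apoh. Pairs called by correlation numbered 1 with an offset of 0, 14 with median centring, 2 on all 14 arrays, 1 on residuals after slide series and genotype, 3 without wild type 6 and 1 by rho. These counts are of pairs of the 7 genes, and pairs of all tested genes were not counted in this way. The r of Apoa1 and Apoc1 was 0.12 with median centring and 0.04 on residuals. The cause of these shifts was not tested. No gene of the 7 had another oligonucleotide to use. The alternatives with positions 26 to 92 missing, with block 1 in place, with the block without mthr-/- 1, with blocks 3 and 4 of Apoc3 on wild type 1 left out (-0.38), the correlations without wild type 1 or 6, the genotype by sex term without mthr-/- 1 and the AGGTCA motif were chosen after seeing the data.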
